A study of Mus musculus with 75 samples.

Results

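The transcription regulators and cofactors described here, 10 in number, belong to the naive state of mouse embryonic stem cells, the state that resembles the inner cell mass before implantation. They were followed across 3 RNA-seq count tables of cells treated with retinoic acid (RA). They were taken by name, as Zfp42, Esrrb, Klf2, Klf4, Klf5, Tfcp2l1, Prdm14, Tcl1, Nr0b1 and Tbx3, and numbered 10 of the 52636 gene entries of the largest table. All 10 were found in each table and all 10 passed the filter on low counts, at 16445 genes tested in the receptor knockout table, 16914 in the overexpression table and 18768 in the enhancer table. The choice used no measured value of these samples by its rule, although it was made with earlier results of these data known.

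The series held 75 samples, of which the 23 RNA-seq libraries were used here. Every library came from E14, an established mouse embryonic stem cell line labelled as embryo, blastocyst. Cells were kept on gelatin in serum with LIF, a cytokine that sustains self-renewal, and 2i, the MEK inhibitor PD0325901 with the GSK inhibitor CHIR99021. All groups, controls included, had then been differentiated for 24 h by taking away LIF and 2i and adding 2 µM RA, so no untreated RNA-seq library was analysed and none of the values below is a response to RA itself. The knockout table held WT-RARX, Rara-KO, Rxra-KO and the double mutant RARX-DKO (n = 2 each). The overexpression table held the control V-OE, whose V the labels do not spell out, Rara-OE and Rxra-OE (n = 2 each). The enhancer table held the control WT-Cyp26 with the mutants Cyp26-E1-KO and Cyp26-E2-KO (n = 3 each), which lack an enhancer named for the Cyp26 genes, whose enzymes break down RA. The match of the enhancer table's column codes to the E1 and E2 deletions is not certain. The Cyp26-E2 titles do not say KO, and these libraries were read as the deletion from the series design. The number of clones, the construct's promoter and the ends of each deletion are not given in the sources used here.

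RA acts through dimers of a retinoic acid receptor (RAR, Rara being one) with a retinoid X receptor (RXR, Rxra being one) on DNA. In embryonic stem cells, naive regulators are held on by several inputs that meet at different members. LIF acts through STAT3 on Klf4 and Tfcp2l1 and, through other kinases, on Tbx3. Inhibition of GSK3 relieves the repressor Tcf7l1 from Esrrb, and inhibition of MEK preserves Klf2. Prdm14 keeps FGF signalling and DNA methylation low. When LIF and 2i are removed these genes are shut down over the following days, and RA hastens this.

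Totals per library ran from 7408691 to 13052102 counts in the knockout table, from 7835519 to 11453063 in the overexpression table and from 28397794 to 33601996 in the enhancer table. Levels are CPM, counts per 1000000 counts of a library, over library sizes scaled by TMM, a method that lines up the bulk of genes between libraries, and log2 fold changes (log2FC) are from edgeR's quasi-likelihood test with Benjamini-Hochberg adjusted p-values and a threshold of 0.05. Rara was at 5.35 and 4.37 CPM in Rara-KO and at 5.57 and 6.53 in RARX-DKO, against 100.1 and 109 in WT-RARX. Rxra was at 18.4 and 16.1 CPM in Rxra-KO and at 13.6 and 27.6 in RARX-DKO, against 38.2 and 46.0 in WT-RARX. Overexpressed Rara stood at 104 and 111 CPM against 51.6 and 52.4 in V-OE, and overexpressed Rxra at 202 and 204 against 45.7 and 42.9; these counts may include transcripts of the construct. Cyp26a1 was at 33.8 to 58.8 CPM in Cyp26-E1-KO and at 363 to 391 in Cyp26-E2-KO, against 368 to 385 in WT-Cyp26. Replicates varied more than counting error in every table: the variance between same-group libraries was 9.70 to 17.4 times that of counting in the knockout table, 2.03 to 2.48 times in the overexpression table and 6.45 to 66.0 times in the enhancer table. Cyp26-E1-KO replicate 2 stood apart, and with it left out the last range was 6.45 to 11.8 times. Rara-KO replicate 2 and RARX-DKO replicate 1 were closer to each other, at 6.03 times, than any same-group pair of that table. On chromosome 8, which carries Zfp42 and Klf2, RARX-DKO replicate 2 had a median log2 deviation of 0.34 from the table's mean over 860 genes, and replicate 1 had -0.07. The stem cell markers of the label were present throughout, with a summed level of 1991 to 5151 CPM over 8 genes (Pou5f1, Sox2, Nanog, Sall4, Lin28a, Epcam, Cdh1 and Utf1). Replicates are labelled biological, with nothing on separate cultures, so the p-values measure only the spread between these samples, which may be technical.

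Promoter sequences were looked up because the members did not all move together, and those of Zfp42, Nr0b1 and Klf4 are shown: Zfp42 and Nr0b1 as the members that hold a motif match, and Klf4 as the one that did not fall in Rxra-OE. The RefSeq promoter table (build GRCm38.p6) matched 7 of the 10 members; Klf5, Prdm14 and Tbx3 are named only. Each sequence is the 250 bases before the annotated start, read 5′ to 3′ on the gene's strand, in lower case, with motif matches in capitals. For Zfp42, on the minus strand at chr8:43307010-43307259, the capitals mark the reverse complement of the octamer ATGCAAAT, the sequence that POU factors such as Pou5f1 bind. For Nr0b1, on the plus strand at chrX:86191525-86191774, they mark the nuclear receptor half-site AGGTCA. For Klf4, on the minus strand at chr4:55532476-55532725, none of the motifs searched was found.
Zfp42: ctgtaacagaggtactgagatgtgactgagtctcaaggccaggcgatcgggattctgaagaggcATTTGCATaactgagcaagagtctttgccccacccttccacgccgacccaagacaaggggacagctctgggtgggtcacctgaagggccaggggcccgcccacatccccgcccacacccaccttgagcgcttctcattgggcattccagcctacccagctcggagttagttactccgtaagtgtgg
Nr0b1: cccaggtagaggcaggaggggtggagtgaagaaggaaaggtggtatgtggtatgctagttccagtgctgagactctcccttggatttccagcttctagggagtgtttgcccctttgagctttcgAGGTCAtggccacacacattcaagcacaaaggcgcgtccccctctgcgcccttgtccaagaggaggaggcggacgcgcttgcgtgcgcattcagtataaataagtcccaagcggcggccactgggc
Klf4: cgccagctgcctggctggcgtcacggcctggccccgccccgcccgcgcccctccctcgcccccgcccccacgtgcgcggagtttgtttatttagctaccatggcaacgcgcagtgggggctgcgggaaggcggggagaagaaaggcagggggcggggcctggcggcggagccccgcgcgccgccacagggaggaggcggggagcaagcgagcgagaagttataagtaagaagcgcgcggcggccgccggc

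The octamer of Zfp42 began 186 bases before the start and the half-site of Nr0b1 126 bases before it. Both strands were searched. The half-site AGGTCA occurred in 14.0% of the 32851 promoters of the table and the octamer in 1.60%. The STAT motif TTCCNGGAA occurred in 0.913% of promoters and in none of the members'. The receptor element with repeats spaced by 5 bases, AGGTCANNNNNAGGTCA, which overlaps the half-site, occurred in 0.00913% and in none of the members'. GC content was 58.4% for Zfp42, 57.2% for Nr0b1 and 74.0% for Klf4, against a median of 52.4% over all promoters. Klf2 was at 71.2%, Tfcp2l1 at 65.2%, Tcl1 at 57.6% and Esrrb at 60.8% and 52.0% for its separate starts. These members fell in Rxra-OE, so a high GC content was not particular to Klf4. The STAT motif and the spaced repeat are so rare as exact strings that their absence from the members carries no information. Variant sequences and other spacings were not searched. A match of letters is a description of this window and says nothing about binding.

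Levels of different genes were compared as CPM per kilobase of exon. The order of genes depends on the annotated exon length, which the SDs do not cover. In WT-RARX, Zfp42, a zinc finger protein long used as the marker of the naive state, was the most abundant of the 10 at 197 CPM per kb. Esrrb (51.8 ± 1.8), Nr0b1 (51.6 ± 1.9) and Klf2 (49.4 ± 1.5 CPM per kb, SD, n = 2) followed, and neighbours among these 3 differed by less than the sum of their SDs. Tbx3 stood at 43.4, Klf4 at 28.3, Tfcp2l1 at 25.3, Klf5 at 14.2, Tcl1 at 8.52 and Prdm14 at 3.73 CPM per kb. In V-OE and WT-Cyp26 too, Zfp42 was the highest (463 and 142 CPM per kb), and Tcl1 (13.5 and 6.45) and Prdm14 (12.1 and 1.51) were the lowest. The tables were deposited and scaled separately, so levels are set side by side across them and tested only within one.

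The order changed in Rxra-OE. There Klf4, which ranked sixth in V-OE at 61.8 ± 3.1 CPM per kb, was the most abundant at 64.5 ± 1.2 (SD, n = 2), followed by Tbx3 at 53.2 ± 0.48. Without division by length, Tbx3 (mean 353 CPM) and Tfcp2l1 (293) stood above Klf4 (197) in Rxra-OE. Zfp42 was at 41.9 ± 1.3 and Klf2 at 39.0 ± 4.5 CPM per kb, a pair within its spread. Tfcp2l1 stood at 31.1, Esrrb at 18.1, Nr0b1 at 8.09 and Klf5 at 6.35, and Prdm14 and Tcl1 at 0.722 and 0.471 CPM per kb were at the bottom. In Rara-OE, Zfp42 stayed first at 238 CPM per kb, with Tbx3 (113) and Klf2 (104) above Esrrb (79.6).

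**Figure D1:**
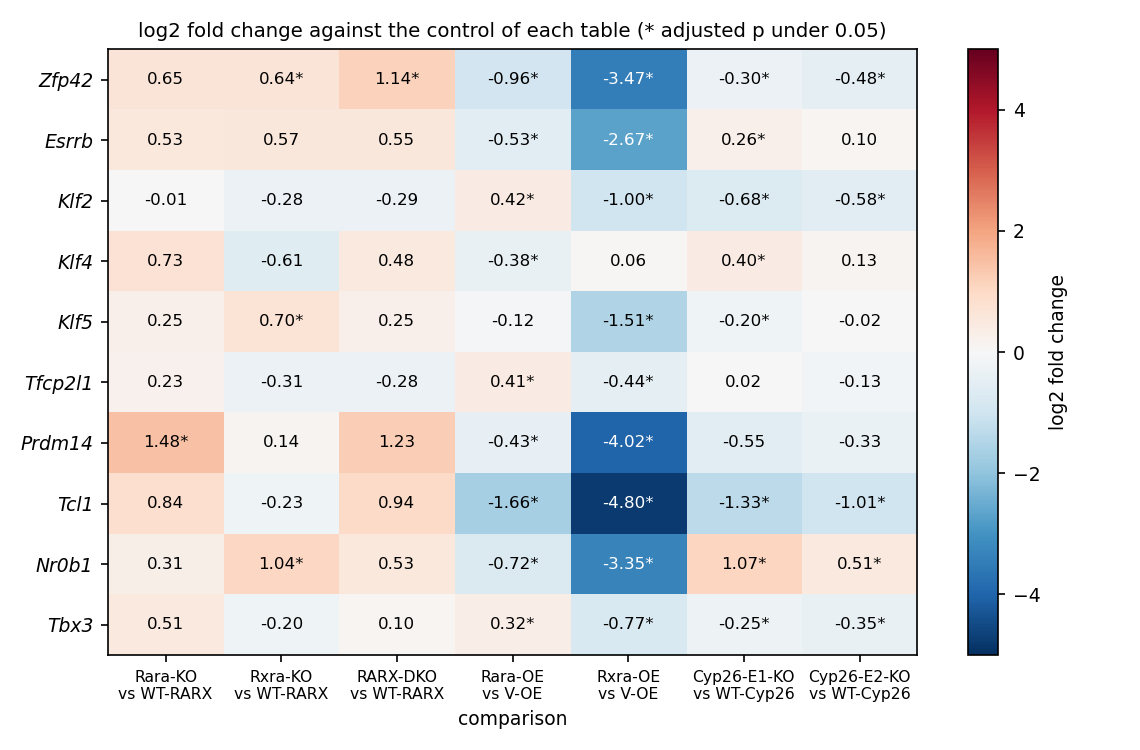
Heat map of log2FC for the 10 regulators (rows) in each mutant against the control of its own table (columns), with an asterisk where the adjusted p of edgeR was under 0.05. The Rxra-OE column is blue for 9 of 10 genes, from -4.80 for Tcl1 to -0.44 for Tfcp2l1, and the knockout columns hold few asterisks.

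Overexpression of Rxra lowered 9 of the 10 regulators, and Klf4 was the exception. The 5 with the largest falls, Tcl1, Prdm14, Zfp42, Nr0b1 and Esrrb, were 6.36-fold to 27.9-fold lower. The background was wide, since 60.2% of all genes tested were called in this comparison, 29.3% lower and 30.9% higher. The median log2FC of the 10 genes was -2.09, beside a median of all genes between -0.01 and 0.01. The 9 that fell also had every Rxra-OE library below every V-OE library, a pattern shown by 38.5% of genes tested, while 40.1% had every Rxra-OE library above.

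Zfp42 read 886 and 855 CPM in V-OE and 80.6 and 77.2 in Rxra-OE. The fall was 11-fold (log2FC -3.47 ± 0.05 SE, adjusted p = 2.68e-50), with the groups far apart. Esrrb, an orphan nuclear receptor that activates much of the naive program, read 695 and 695 CPM in V-OE and 112 and 107 in Rxra-OE. It fell 6.36-fold (log2FC -2.67 ± 0.05, adjusted p = 2.69e-46). Nr0b1, an orphan receptor that lacks a usual DNA-binding domain and acts as a corepressor, went from 148 and 154 CPM to 13.2 and 16.1. Its log2FC was -3.35 ± 0.08 (adjusted p = 3.35e-38), a 10.2-fold fall, and both Rxra-OE libraries lay an order of magnitude under V-OE.

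Prdm14, a PR-domain protein that restrains FGF signalling and the DNA methyltransferases, read 31.9 and 30.2 CPM in V-OE and 1.50 and 2.2 in Rxra-OE. The log2FC was -4.02 ± 0.20 (adjusted p = 4.5e-25), 16.2-fold lower. Tcl1, a coactivator of the kinase AKT, had the largest change of the 10, from 26.2 and 23.6 CPM to 0.810 and 0.930. It was 27.9-fold lower (log2FC -4.80 ± 0.25, adjusted p = 4.67e-24) and ranked 102 of 16914 genes by size of change, with Prdm14 at 183, Zfp42 at 293, Nr0b1 at 323 and Esrrb at 597. The low counts of Prdm14 and Tcl1 in Rxra-OE give them the widest errors of the 10.

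The Krüppel-like factors, which share targets in the naive network, did not move as a family. Klf5 read 92.6 and 96.5 CPM in V-OE and 31.0 and 35.1 in Rxra-OE, a 2.85-fold fall (log2FC -1.51 ± 0.09, adjusted p = 7.65e-15). Klf2 read 149 and 137 CPM against 78.0 and 66.2 (log2FC -1.0 ± 0.11, adjusted p = 5.27e-05), so its groups were also apart. Klf4, the STAT3 target and reprogramming factor, read 195 and 182 CPM in V-OE and 194 and 199 in Rxra-OE. Its log2FC was 0.06 ± 0.05 (95% interval -0.04 to 0.17, adjusted p = 0.28), and its groups overlapped. Scaling by library totals, which shifts the median of all genes in this comparison by 0.10, gave Klf4 a log2FC of 0.16 (adjusted p = 0.00467).

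Tbx3 and Tfcp2l1 fell least of the members that fell. Tbx3, a T-box factor, read 602 and 599.6 CPM in V-OE and 350.3 and 355 in Rxra-OE, 1.70-fold lower (log2FC -0.77 ± 0.04, adjusted p = 5.59e-24). Tfcp2l1, a CP2-family factor downstream of STAT3, read 385 and 409 CPM against 297 and 289 (log2FC -0.44 ± 0.04, adjusted p = 5.4e-13). Both pairs of libraries were separated from V-OE, by a smaller step than any other member that fell.

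**Figure D2:**
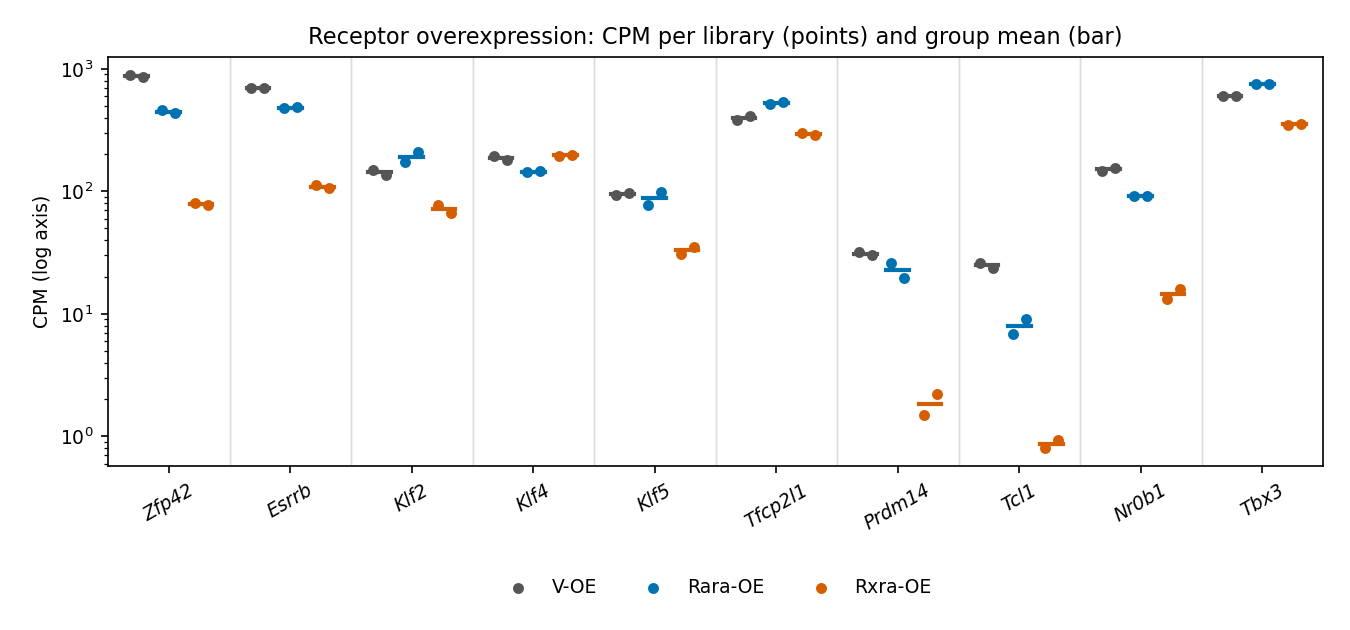
CPM of each regulator (log axis) in V-OE, Rara-OE and Rxra-OE, where points are libraries and bars are means of 2. Rxra-OE is the lowest group for 9 genes, Klf4 is level with V-OE, and Klf2, Tfcp2l1 and Tbx3 are highest in Rara-OE.

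Overexpression of Rara divided the 10 genes. Of these, 6 fell (Tcl1, Zfp42, Nr0b1, Esrrb, Prdm14 and Klf4), 3 rose (Klf2, Tfcp2l1 and Tbx3), and Klf5 did not pass the test. In this comparison 28.6% of all genes were called, 13.9% lower and 14.7% higher, and the same 9 members had groups that did not overlap, 3 higher and 6 lower, as had 31.2% and 30.8% of all genes. The median log2FC of the 10 was -0.40.

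Zfp42 read 459 and 437 CPM in Rara-OE, 1.94-fold below V-OE (log2FC -0.96 ± 0.04, adjusted p = 1.89e-26). Tcl1 read 6.83 and 9.10 CPM, the largest fall at 3.15-fold (log2FC -1.66 ± 0.17, adjusted p = 2.06e-11). Nr0b1 read 92.4 and 91 CPM (log2FC -0.72 ± 0.07, adjusted p = 3.92e-13) and Esrrb 479 and 484 (log2FC -0.53 ± 0.04, adjusted p = 5.02e-16). These 4 lay between V-OE and Rxra-OE in every library. Klf4 read 144 and 146 CPM, below both V-OE and Rxra-OE (log2FC -0.38 ± 0.05, adjusted p = 7.27e-08). Prdm14 read 26 and 19.7 CPM (log2FC -0.43 ± 0.13, adjusted p = 0.0117), and its call was lost without V-OE replicate 1 (adjusted p = 0.0843), without Rara-OE replicate 2 (0.273) and in DESeq2 (0.107).

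Klf2 rose to 174 and 209 CPM in Rara-OE (log2FC 0.42 ± 0.10, adjusted p = 0.0148), above both V-OE libraries; without V-OE replicate 2 it was 0.35 (adjusted p = 0.0887). Tfcp2l1 rose to 518 and 535 CPM (log2FC 0.41 ± 0.04, adjusted p = 2.12e-11) and Tbx3 to 747 and 756 (log2FC 0.32 ± 0.04, adjusted p = 1.23e-09). All 3 were thus 1.25-fold to 1.34-fold higher than V-OE with one receptor and lower than V-OE with the other. Klf5 read 77.2 and 98.4 CPM and overlapped V-OE (log2FC -0.12 ± 0.08, 95% interval -0.29 to 0.06, adjusted p = 0.328); without Rara-OE replicate 2 it was -0.29 (adjusted p = 0.00741).

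Both mutants were set against the same V-OE libraries, so the difference between them was tested directly. All 10 regulators differed between Rxra-OE and Rara-OE, where 47.2% of all genes were called, 23.4% lower and 23.8% higher. Of the 10, 9 were lower in Rxra-OE, from Prdm14 at log2FC -3.59 ± 0.20 (adjusted p = 6.67e-22) to Tfcp2l1 at -0.84 ± 0.04 (adjusted p = 6.17e-24), and Klf4 was higher by 0.44 ± 0.05 (adjusted p = 2.99e-10). Klf2 and Klf5 differed by -1.41 ± 0.11 and -1.39 ± 0.09, nearly the same step. The groups did not overlap for any of the 10, as for 71.7% of all genes.

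The surrounding network was counted from lists of related genes. Among all genes, 30.9% were called higher and 29.3% lower in Rxra-OE, and 14.7% and 13.9% in Rara-OE. Of the core pluripotency factors Nanog, Pou5f1, Sox2 and Sall4, 4 of 4 fell in both overexpression groups, with median log2FC of -2.0 in Rxra-OE and -0.32 in Rara-OE. In Rxra-OE, Sox2 changed by -4.08 ± 0.06 (adjusted p = 1.91e-48), Nanog by -2.67 ± 0.04 (1.19e-47) and Pou5f1 by -1.34 ± 0.04 (2.51e-37), and in Rara-OE Sox2 changed by -0.74 ± 0.05 (4.15e-19). Of 12 other naive-state genes, 10 fell in Rxra-OE, led by Fgf4, the growth factor that starts exit through ERK, at -3.87 ± 0.07 (9.87e-44). In Rara-OE 7 of the 12 fell and 2 rose, with Fgf4 at -0.88 ± 0.06 (7.38e-19). Of 11 genes of exit and the formative or primed state, 9 were tested: 7 fell and 2 rose in Rxra-OE, with Foxd3, a repressor expressed in the early epiblast, at -4.39 ± 0.15 (9.03e-32), and 6 fell and 1 rose in Rara-OE, where Dnmt3b, a de novo DNA methyltransferase, rose by 0.70 ± 0.04 (4.95e-19).

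The signalling lists split, beside 30.9% of all genes called higher and 29.3% lower in Rxra-OE, and 14.7% and 13.9% in Rara-OE. Of 10 LIF-STAT3 genes, 5 rose and 3 fell in Rxra-OE: the kinase Jak2 rose by 2.41 ± 0.11 (adjusted p = 3.96e-27), while Pim1, a STAT3 target, changed by -2.28 ± 0.05 (7.81e-42) and Pim3 by -1.27 ± 0.07 (1.05e-22). In Rara-OE 4 rose and 3 fell, with the coreceptor Il6st up by 0.67 ± 0.09 (3.51e-08) and Pim1 at -0.29 ± 0.04 (2.53e-07). Of 7 tested WNT-GSK3 genes, 6 rose in Rxra-OE and 3 in Rara-OE, and none fell. Cdx1, a homeobox gene that answers to both WNT and RA, rose by 1.89 ± 0.06 (3.19e-34) and 0.46 ± 0.06 (1.45e-08), and Axin2, a feedback inhibitor of WNT, by 1.76 ± 0.11 (1.19e-20) and 0.78 ± 0.12 (6.45e-07). Of 9 MEK-ERK output genes, 7 fell and 1 rose in Rxra-OE, and 4 fell and 2 rose in Rara-OE. Etv4, an ETS factor induced by ERK, was at -2.77 ± 0.06 (6.39e-41) and -0.68 ± 0.05 (7.26e-16).

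Markers of other cell types did not all move the same way. Beside them, 30.9% of all genes were called higher and 29.3% lower in Rxra-OE, and 14.7% and 13.9% in Rara-OE. The summed level of 11 extraembryonic endoderm genes (among them Gata4, Gata6, Sox17 and Foxa2) was 460.7 to 492 CPM in V-OE, 1266 to 1272 in Rara-OE and 1476 to 1492 in Rxra-OE, and 11 of 11 rose in both. Of 8 trophectoderm markers, with sums of 114 to 115 CPM in V-OE, 586 to 635 in Rara-OE and 655 to 683 in Rxra-OE, 7 were tested; 5 rose in Rara-OE, and 4 rose and 1 fell in Rxra-OE. The stem cell marker sum was 4970 to 5151 CPM in V-OE, 4004 to 4127 in Rara-OE and 1991 to 2048 in Rxra-OE, and 6 of 8 fell and 1 rose in both. Fibroblast markers summed to 32.8 to 33.5, 61.0 to 63.9 and 129 to 134 CPM, and 2 of 3 tested rose in both mutants. Lum and Postn were at 0 in all 3 groups, Dcn in both mutants and Col3a1 in Rxra-OE. Neuroectoderm markers summed to 70.0 to 80.4, 37.0 to 41.5 and 25.4 to 25.9 CPM in the same order of groups, and of 4 tested, 1 fell in Rara-OE and 2 rose and 2 fell in Rxra-OE. Markers of 2-cell-like cells summed to 6.73 to 7.85, 2.51 to 3.46 and 27.5 to 28.0 CPM, and of 3 tested, 2 fell in Rara-OE and 3 rose in Rxra-OE. Mesoderm and streak markers summed to 21.7 to 22.6, 24.2 to 27.6 and 15.7 to 17.5 CPM, and of 5 tested, 0 passed in Rara-OE and 1, Eomes, fell in Rxra-OE. In bulk RNA, fewer cells of a type and less RNA per cell cannot be told apart, and the part of these markers in the results above was not tested.

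In the receptor knockouts replicates spread more than in the overexpression table, and few of the regulators passed. Zfp42 was the gene with the plainest pattern: it was higher than WT-RARX in every knockout library, at 369 and 372 CPM in WT-RARX, 634 and 531 in Rara-KO, 618 and 539.6 in Rxra-KO and 786 and 848 in RARX-DKO. No mutant library overlapped the control, and both RARX-DKO libraries lay above all 4 single-knockout libraries. That further step did not pass, at log2FC 0.49 ± 0.14 against Rara-KO (adjusted p = 0.917) and 0.50 ± 0.14 against Rxra-KO (0.0641). In RARX-DKO Zfp42 rose 2.21-fold (log2FC 1.14 ± 0.14, 95% interval 0.84 to 1.44, adjusted p = 0.000954). It was the 1 member of 10 called there, where 2.24% of all genes were called, 1.05% higher and 1.19% lower. With chromosome 8 brought to the level of the other chromosomes in each library, the log2FC was 1.00 (adjusted p = 0.00375), and without RARX-DKO replicate 2 it was 1.10 (0.00259).

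The single knockouts gave Zfp42 steps of nearly equal size. In Rxra-KO it rose 1.56-fold (log2FC 0.64 ± 0.14, adjusted p = 0.0259). In Rara-KO the log2FC was 0.65 ± 0.14 (95% interval 0.36 to 0.95) with an adjusted p of 0.0505, just outside the threshold. Of 15 alternatives 9 placed it inside, among them DESeq2 and leaving out a library of Rxra-KO or RARX-DKO. It stayed outside with the replicate block, with the chromosome offset, and without any 1 library of WT-RARX or Rara-KO, the groups compared. With 1 library left out the log2FC ran from 0.52 to 0.77. Rxra-KO against Rara-KO differed by -0.01 (95% interval -0.30 to 0.28, adjusted p = 0.977). An interaction term, which asks whether RARX-DKO equals both single effects added, was tested for all 10 genes and passed for 0 (edgeR, 3 at an unadjusted p under 0.05; DESeq2 also 0), and 0% of all genes passed in edgeR.

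In Rara-KO 1 of the 10 was called, where 0.645% of all genes were called 0.389% higher and 0.255% lower. This was Prdm14, at 9.12 and 9.98 CPM in WT-RARX and 30.0 and 23.6 in Rara-KO. Both mutant libraries lay well above the control (2.80-fold, log2FC 1.48 ± 0.30, adjusted p = 0.0446). The call did not hold without WT-RARX replicate 1 (adjusted p = 0.352), WT-RARX replicate 2 (0.473), Rara-KO replicate 1 (0.28), Rara-KO replicate 2 (0.139) or Rxra-KO replicate 2 (0.053). Members under an unadjusted p of 0.05 numbered 6, all higher, and 8 had both Rara-KO libraries above both controls, a pattern of 22.7% of all genes, with 24.2% below. Their median log2FC over the 10 was 0.52, beside a median of all genes between -0.01 and 0.01.

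Tcl1 read 36.3 and 20.2 CPM in Rara-KO against 15.5 and 16.0 (log2FC 0.84 ± 0.25, adjusted p = 0.169). Klf4 read 123 and 163 CPM against 86.1 and 86.2 (log2FC 0.73 ± 0.25, adjusted p = 0.296), and Esrrb 490.4 and 417 against 306 and 321 (log2FC 0.53 ± 0.17, adjusted p = 0.207). None of these overlapped the control, and none passed. The remaining members ranged from Klf2 at -0.01 to Tbx3 at 0.51.

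In Rxra-KO another set passed. Nr0b1, Klf5 and Zfp42 rose and none fell, where 2.47% of all genes were called 1.28% higher and 1.2% lower. Nr0b1 read 187 and 195 CPM in Rxra-KO against 90.8 and 95.7 in WT-RARX, and 136 and 94.7 in Rara-KO. It rose 2.05-fold (log2FC 1.04 ± 0.17, adjusted p = 0.00866), with both Rxra-KO libraries above every other library of the table. Klf5 read 131 and 109 CPM in Rxra-KO against 71.5 and 76.0 (log2FC 0.70 ± 0.15, adjusted p = 0.0264), again the highest libraries of the table.

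Each call was lost with either WT-RARX library left out, which leaves 1 control library. With 1 library left out the log2FC ran from 1.00 to 1.07 for Nr0b1, 0.57 to 0.83 for Klf5 and 0.55 to 0.75 for Zfp42. Without WT-RARX replicate 1 the adjusted p was 0.115 for Nr0b1, 0.201 for Klf5 and 0.181 for Zfp42, and without WT-RARX replicate 2 it was 0.175, 0.25 and 0.293. Without Rxra-KO replicate 1 it was 0.113 for Klf5 and 0.098 for Zfp42, and without Rxra-KO replicate 2 it was 0.0515 for Zfp42. The direction was the same in each case. Without RARX-DKO replicate 1 or replicate 2 Esrrb was called too, and calls over all genes also rose in number. Across the 10, 4 had both Rxra-KO libraries above and 4 had both below the controls, against 22.8% and 25% of all genes, and the median log2FC was -0.03. Klf4 was among the 4 below, at 45.2 and 68.0 CPM against 86.1 and 86.2 (log2FC -0.61 ± 0.26, adjusted p = 0.279). Esrrb stood above, at 422 and 508 CPM (log2FC 0.57 ± 0.17, adjusted p = 0.0982).

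**Figure D3:**
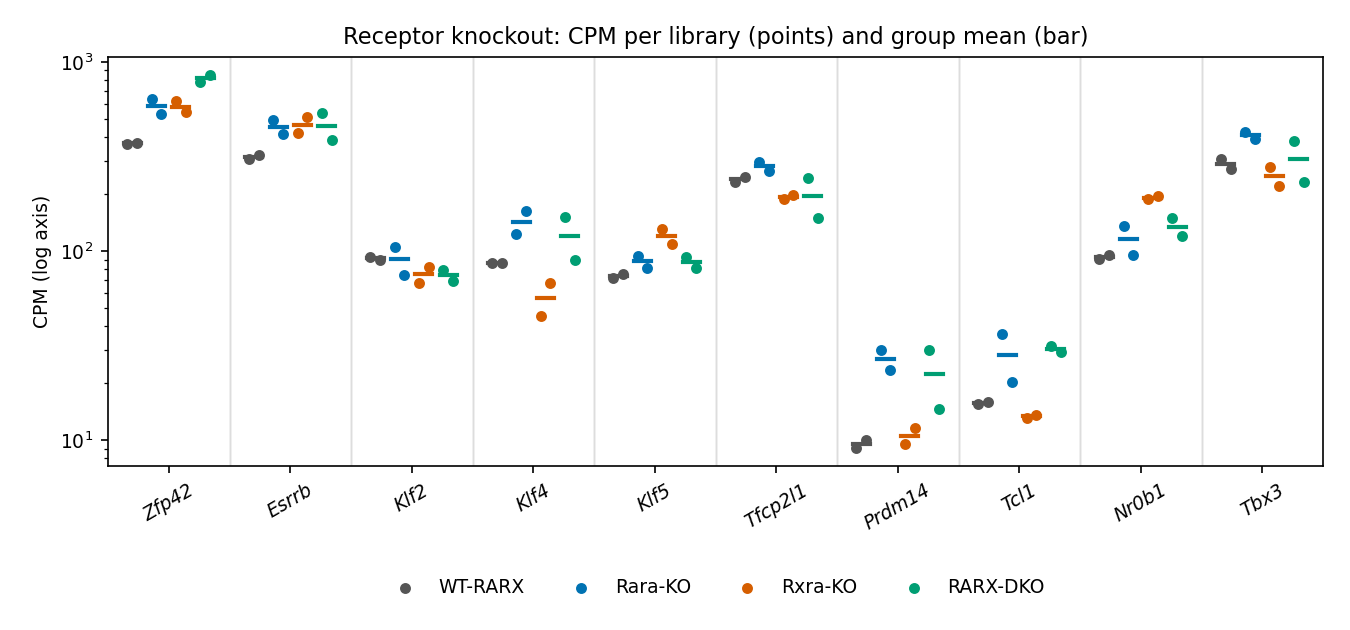
CPM of each regulator (log axis) in the 4 groups of the knockout table, where points are libraries and bars are means of 2. Zfp42 is highest in RARX-DKO, Nr0b1 and Klf5 are highest in Rxra-KO, and the points of Prdm14 in RARX-DKO lie at 30.0 and 14.5 CPM.

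The single knockouts, which share the WT-RARX control, were compared directly. Of the 10, 4 differed, where 5.38% of all genes were called, 2.19% higher and 3.19% lower. Klf4 was lower in Rxra-KO than in Rara-KO (log2FC -1.33 ± 0.26, adjusted p = 0.0176), as were Prdm14 (9.50 and 11.6 CPM in Rxra-KO; -1.34 ± 0.31, adjusted p = 0.0247) and Tcl1 (13.1 and 13.6 CPM; -1.08 ± 0.25, adjusted p = 0.0276). Nr0b1 was higher in Rxra-KO (0.73 ± 0.17, adjusted p = 0.0293). For these 4, and for 7 of the 10 in all, the Rxra-KO libraries did not overlap those of Rara-KO, as for 52.9% of all genes. Tbx3 (-0.71, adjusted p = 0.0677), Klf5 (0.45, 0.101) and Tfcp2l1 (-0.54, 0.108) did not pass. Klf4 was lost without Rara-KO replicate 2 (0.144) or Rxra-KO replicate 1 (0.0805).

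Prdm14, Tcl1 and Nr0b1 lost the call with most libraries left out. Without WT-RARX replicate 1 the adjusted p was 0.063, 0.0667 and 0.0694 for Prdm14, Tcl1 and Nr0b1, and without WT-RARX replicate 2 it was 0.0634, 0.0677 and 0.0704. Without Rxra-KO replicate 1 it was 0.116, 0.0925 and 0.0757, and without Rxra-KO replicate 2 it was 0.0814, 0.105 and 0.101. Leaving out Rara-KO replicate 1 gave 0.124 for Prdm14 and 0.244 for Tcl1, whose log2FC then was -0.59. Leaving out Rara-KO replicate 2 gave 0.0918 for Prdm14 and 0.298 for Nr0b1. In a fit of Rxra-KO and Rara-KO alone Tcl1 (0.0751) and Nr0b1 (0.0608) were lost as well. Without either RARX-DKO library more members were called, and so were more of all genes.

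Each single knockout was also set against the double mutant. For RARX-DKO against Rara-KO, 0 members were called, with 2 at an unadjusted p under 0.05, and 0.0122% of all genes were called; 3 of the 10 had groups that did not overlap, as had 27.7% of all genes. Without RARX-DKO replicate 1 a member passed there, and more of all genes did too. Against Rxra-KO, Tcl1 and Klf4 were called, where 3.5% of all genes were, 2.01% higher and 1.48% lower. Tcl1 read 31.5 and 29.1 CPM in RARX-DKO against 13.1 and 13.6 in Rxra-KO (2.26-fold higher, adjusted p = 0.0244). Klf4 read 151 and 90.0 CPM against 45.2 and 68.0 (log2FC 1.09 ± 0.26, adjusted p = 0.0489). The groups did not overlap for either gene, nor for 6 of the 10 in all against 45.1% of all genes, although the Klf4 libraries of RARX-DKO were far from each other.

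Both calls were lost without WT-RARX replicate 1 (adjusted p = 0.0623 for Tcl1 and 0.0992 for Klf4), WT-RARX replicate 2 (0.0635 and 0.0983), Rxra-KO replicate 1 (0.0825 and 0.183), Rxra-KO replicate 2 (0.102 and 0.058) or RARX-DKO replicate 1 (0.101 and 0.198, with Klf4 at a log2FC of 0.67). Klf4 was also lost without Rara-KO replicate 1 (0.0541) or Rara-KO replicate 2 (0.0538). Without RARX-DKO replicate 2 more members were called, and so were more of all genes. Both calls were lost, and 0 members were called, in a fit of these groups alone.

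Nr0b1 and Klf5, the genes highest in Rxra-KO, were at 149 and 119.6 CPM and at 93.1 and 81.6 CPM in RARX-DKO. Against WT-RARX these are log2FC of 0.53 (adjusted p = 0.156) and 0.25 (0.512), and against Rxra-KO -0.51 (0.127) and -0.45 (0.119), so neither difference passed. Their departures from the sum of the single knockouts were -0.82 ± 0.25 for Nr0b1 (adjusted p = 0.476) and -0.71 for Klf5 (0.474). Prdm14, at 30.0 and 14.5 CPM in RARX-DKO, was at log2FC 1.23 ± 0.30 against WT-RARX (adjusted p = 0.0547), and Tcl1 at 0.94 ± 0.25 (0.067). Both had RARX-DKO libraries above the controls, as did 7 of the 10, against 21.5% of all genes, and 1 had both below, against 23.1%. Without RARX-DKO replicate 2 the members called against WT-RARX numbered 3 in place of 1, with Prdm14 at 1.66 (adjusted p = 0.00352) and Esrrb at 0.78 (0.0251). Without Rara-KO replicate 1 or replicate 2 they numbered 2, with Tcl1 at an adjusted p of 0.0387 or 0.032.

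Among related genes of the knockout table, 1 of the 4 core factors rose in each mutant: Nanog in Rara-KO (1.06 ± 0.18, adjusted p = 0.022), and Sox2 in Rxra-KO (0.69 ± 0.15, 0.0295) and RARX-DKO (0.97 ± 0.15, 0.00611). Shares of all genes called higher and lower were 0.389% and 0.255% in Rara-KO, and 1.28% and 1.2% in Rxra-KO. In RARX-DKO they were 1.05% and 1.19%. Other naive-state genes numbered 11 tested, of which 2 rose in Rxra-KO, Gbx2 (1.67 ± 0.20, 0.00138) and Dnmt3l (1.08 ± 0.23, 0.0392), and 0 passed in Rara-KO and RARX-DKO. Of 9 MEK-ERK output genes, 5 rose in Rxra-KO with a list median of 0.98, and 0 passed in Rara-KO and RARX-DKO. Spry4, a feedback inhibitor of the pathway, rose by 1.32 ± 0.25 (0.0245), Etv5 by 0.73 ± 0.16 (0.0307) and Dusp4, an ERK phosphatase, by 1.08 ± 0.25 (0.0369). Of 10 LIF-STAT3 genes, 2 rose in RARX-DKO, the receptor Lifr (0.74 ± 0.17, 0.041) and the inhibitor Socs3 (1.21 ± 0.28, 0.0441), and 0 passed in the single knockouts.

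Of 7 WNT-GSK3 genes, Cdx1 fell in Rxra-KO (-1.96 ± 0.19, adjusted p = 0.000376) and RARX-DKO (-1.17 ± 0.18, 0.00499), Axin2 rose in Rxra-KO (1.09 ± 0.23, 0.0249), and 0 passed in Rara-KO. Of 10 exit and primed genes tested, Foxd3 rose in all 3 mutants (1.56 ± 0.28, 0.0277 in Rara-KO; 2.1 ± 0.28, 0.00325 in Rxra-KO; 1.87 ± 0.28, 0.00641 in RARX-DKO). Pou3f1 also rose in Rxra-KO (1.55 ± 0.25, 0.00727), and Sox3 fell in Rara-KO (-1.57 ± 0.28, 0.0252) and RARX-DKO (-1.62 ± 0.29, 0.0107). Extraembryonic endoderm markers summed to 528 to 573 CPM in WT-RARX, 453 to 493 in Rara-KO (1 of 11 fell), 734 to 809 in Rxra-KO (1 rose) and 439 to 473 in RARX-DKO (7 fell). Between mutants, 8 of the 11 were higher in Rxra-KO than in Rara-KO, and 9 were lower in RARX-DKO than in Rxra-KO. Among all genes, 2.19% were called higher in the first comparison and 1.48% lower in the second. In Rxra-KO against Rara-KO, 4 of 10 exit genes and 4 of 9 MEK-ERK output genes were also higher, and Nanog was lower (-1.44 ± 0.18, adjusted p = 0.00127). The stem cell marker sum was 3202 to 3292 CPM in WT-RARX and between 3689 and 4606 in the mutants, with 1 of 8 rising in Rara-KO, 3 in Rxra-KO and 2 in RARX-DKO. Neuroectoderm markers summed to 42.7 to 47.6 CPM in WT-RARX, 60.6 to 66.2 in Rara-KO and 47.8 to 72.6 in Rxra-KO. In RARX-DKO that sum was 69.4 to 96.1 (1 of 4 tested rose). Fibroblast markers summed to 42.0 to 43.9 CPM in WT-RARX, 34.8 to 46.5 in Rara-KO and 17.1 to 35.6 in RARX-DKO. In Rxra-KO their sum was 15.4 to 25.4 (1 of 3 tested fell). No trophectoderm, mesoderm or 2-cell-like marker passed in any knockout; their sums ran from 63.2 to 142, 11 to 29.4 and 7.72 to 49.2 CPM over the table. Their part in the knockout results was not tested.

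In the enhancer deletions, sequenced more deeply, 8 of 10 regulators passed in Cyp26-E1-KO and 5 of 10 in Cyp26-E2-KO, in both directions. The background was 25.3% of all genes in Cyp26-E1-KO (13.1% higher, 12.1% lower) and 17.5% in Cyp26-E2-KO (9.28% higher, 8.2% lower). Most shifts were small: apart from Nr0b1 and Tcl1, every called member changed by 1.6-fold or less. The median log2FC of the 10 was -0.23 in both.

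Nr0b1 rose and had the lowest adjusted p of the 10 in Cyp26-E1-KO. It read 78.3, 81.6 and 75.2 CPM in WT-Cyp26, 178, 144 and 171 in Cyp26-E1-KO and 116, 109 and 109 in Cyp26-E2-KO. The 3 groups did not overlap. The log2FC was 1.07 ± 0.08 in Cyp26-E1-KO (2.1-fold, adjusted p = 4.79e-07) and 0.51 ± 0.08 in Cyp26-E2-KO (1.42-fold, adjusted p = 0.000546). The difference between the deletions also passed (-0.56 ± 0.08, adjusted p = 0.000933), and Nr0b1 was the 1 member of 10 called there, where 4.49% of all genes were, 2.46% lower and 2.02% higher. Without Cyp26-E1-KO replicate 2 the members called numbered 4, with Nr0b1 at -0.64, and calls over all genes rose from 842 to 1852. The deletions did not overlap for 6 of the 10, as for 22.7% of all genes.

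Tcl1 fell in both. It read 10.2, 12.6 and 12.9 CPM in WT-Cyp26, 5.27, 3.99 and 4.96 in Cyp26-E1-KO and 6.15, 5.42 and 6.14 in Cyp26-E2-KO. The mutants lay below all controls, 2.51-fold lower in Cyp26-E1-KO (log2FC -1.33 ± 0.15, adjusted p = 2.1e-05) and 2.02-fold lower in Cyp26-E2-KO (-1.01 ± 0.15, adjusted p = 0.00032). Klf2 read 139, 135 and 128 CPM in WT-Cyp26, 89.8, 74.1 and 86.7 in Cyp26-E1-KO and 88.4, 85.7 and 94.2 in Cyp26-E2-KO. It fell 1.60-fold (-0.68 ± 0.08, adjusted p = 2.13e-05) and 1.50-fold (-0.58 ± 0.08, adjusted p = 0.000143), with all mutant libraries below all controls.

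Zfp42 read 264, 268 and 269 CPM in WT-Cyp26, 232, 197 and 220.0 in Cyp26-E1-KO and 198, 182 and 196 in Cyp26-E2-KO. It fell in both (-0.30 ± 0.07, adjusted p = 0.00562; -0.48 ± 0.07, adjusted p = 0.000354). Tbx3 read 371, 349 and 356 CPM, then 295, 302 and 308, then 283, 273 and 287. It also fell in both (-0.25 ± 0.06, adjusted p = 0.00736; -0.35 ± 0.06, adjusted p = 0.00105). For both genes no mutant library reached the lowest control.

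The other calls were in Cyp26-E1-KO. Klf4 read 80.1, 78.0 and 69.5 CPM in WT-Cyp26 and 104, 92.4 and 104 in Cyp26-E1-KO (0.40 ± 0.07, adjusted p = 0.0013), and rose in that group. Esrrb read 258, 261 and 264 CPM against 297, 337 and 305 (0.26 ± 0.06, adjusted p = 0.00877). Klf5 read 163, 179 and 165 CPM against 144, 148 and 147 (-0.20 ± 0.06, adjusted p = 0.0287). In Cyp26-E2-KO these 3 were at 0.13, 0.10 and -0.02 and did not pass. The tests of Cyp26-E2-KO against Cyp26-E1-KO gave -0.27 for Klf4 (adjusted p = 0.0558), -0.17 for Esrrb (0.185) and 0.18 for Klf5 (0.127), so a difference between the deletions was not shown for them. Klf5 was the least secure, at an adjusted p of 0.0503 without WT-Cyp26 replicate 1, 0.164 without WT-Cyp26 replicate 2, 0.0664 without WT-Cyp26 replicate 3, 0.0699 without Cyp26-E1-KO replicate 1, 0.0604 without Cyp26-E1-KO replicate 3 and 0.0514 without Cyp26-E2-KO replicate 3. It was also lost with no filter on low counts (0.0724) and in a fit of the compared groups alone (0.0672).

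Prdm14, at 3.50, 4.02 and 4.07 CPM in WT-Cyp26, read 3.03, 1.87 and 2.99 in Cyp26-E1-KO (-0.55 ± 0.21, adjusted p = 0.0702) and 3.10, 3.29 and 2.81 in Cyp26-E2-KO (-0.33, 0.313). Both mutants lay below the controls without passing. Tfcp2l1 was at 0.02 ± 0.09 in Cyp26-E1-KO (adjusted p = 0.926), where replicate 2 read 273 CPM and the others 203 and 213. Without that library, which stood apart, Tfcp2l1 was at -0.13 (adjusted p = 0.0466) and 9 members were called. Calls over all genes then rose from 4741 to 6217. Nr0b1 was at 1.15, Klf4 at 0.46 and Esrrb at 0.20. Tcl1 was at -1.22, Klf2 at -0.60, Zfp42 at -0.24, Tbx3 at -0.25 and Klf5 at -0.21. In Cyp26-E2-KO, Tfcp2l1 was at -0.13 (adjusted p = 0.394), and at -0.12 (0.0296) without that library of the other mutant. Over the 10 members, 3 were higher and 6 lower in every Cyp26-E1-KO library than in every control, and 2 higher and 6 lower in Cyp26-E2-KO. Among all genes those shares were 20% and 19.7%, and 20.7% and 20.8%.

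**Figure D4:**
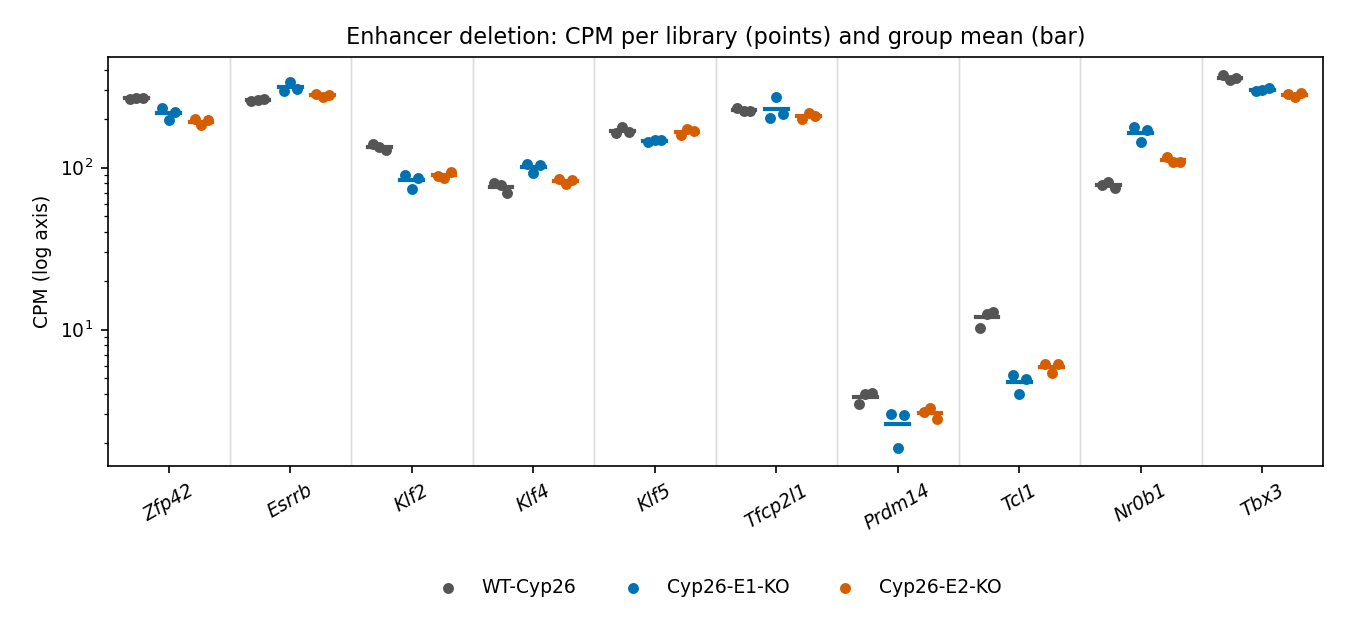
CPM of each regulator (log axis) in the control and both mutants of the enhancer table, where points are libraries and bars are means of 3. Nr0b1 steps up from WT-Cyp26 through Cyp26-E2-KO to Cyp26-E1-KO, while Tcl1, Klf2, Zfp42 and Tbx3 lie below WT-Cyp26 in both mutants.

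Core factors fell in part: Nanog was at -0.96 ± 0.07 in Cyp26-E1-KO (adjusted p = 3.69e-07) and -0.66 ± 0.07 in Cyp26-E2-KO (2.36e-05), and Sox2 at -0.36 ± 0.12 (0.0482) and -0.45 ± 0.12 (0.0257), 2 of 4 in each. Among all genes, 13.1% were called higher and 12.1% lower in Cyp26-E1-KO, and 9.28% and 8.2% in Cyp26-E2-KO. Of 12 other naive-state genes, 3 rose and 2 fell in Cyp26-E1-KO, with Fgf4 at 0.56 ± 0.07 (2.44e-05) and Nr5a2 at 0.95 ± 0.12 (6.02e-05). In Cyp26-E2-KO 3 rose and 3 fell, with Fgf4 at 0.36 ± 0.07 (0.00182) and the imprinting factor Zfp57 at -0.49 ± 0.09 (0.00168). MEK-ERK output genes rose in 6 of 9 and fell in 1 in Cyp26-E1-KO, and rose in 3 and fell in 1 in Cyp26-E2-KO. Dusp6, an ERK phosphatase, was at 0.67 ± 0.06 (2.54e-06) and 0.53 ± 0.06 (4.5e-05). Of 10 LIF-STAT3 genes, 3 rose and 1 fell in Cyp26-E1-KO and 5 rose and 1 fell in Cyp26-E2-KO, Lifr at 0.50 ± 0.08 (0.000543) and 0.49 ± 0.08 (0.00101).

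Of 9 WNT-GSK3 genes, 1 rose and 1 fell in each deletion, beside 25.3% of all genes called in Cyp26-E1-KO and 17.5% in Cyp26-E2-KO. Cdx1 was at -0.83 ± 0.07 in Cyp26-E1-KO (adjusted p = 1.65e-06) and -0.84 ± 0.07 in Cyp26-E2-KO (4.16e-06). Of 11 exit and primed genes, 4 rose and 2 fell in Cyp26-E1-KO, with Foxd3 at 1.13 ± 0.11 (6.19e-06) and Otx2, an early epiblast factor, at 0.90 ± 0.11 (3.08e-05). In Cyp26-E2-KO 3 rose and 4 fell, with Zic2 at -0.58 ± 0.09 (0.000361) and Foxd3 at 0.72 ± 0.11 (0.000553). Extraembryonic endoderm markers summed to 809 to 848 CPM in WT-Cyp26, 954 to 995 in Cyp26-E1-KO, where 5 of 11 rose and 3 fell, and 1051 to 1062 in Cyp26-E2-KO, where 8 rose. Stem cell markers summed to 2564 to 2604, 2728 to 2841 and 2379 to 2476 CPM in the same order of groups; 3 of 8 rose and 2 fell in Cyp26-E1-KO, and 1 rose and 2 fell in Cyp26-E2-KO. Trophectoderm markers summed to 95.1 to 103 CPM in WT-Cyp26, 153 to 156 in Cyp26-E1-KO (5 of 7 tested rose) and 119 to 133 in Cyp26-E2-KO (3 rose). Mesoderm and streak markers summed to 23.8 to 27, 43.2 to 47.6 and 41.6 to 44.6 CPM, with 1 of 5 tested rising in each deletion, Eomes, which is also on the trophectoderm list. Markers of 2-cell-like cells, several of them near-identical copies, summed to 78.1 to 81.7, 39.6 to 55.8 and 62.4 to 67.7 CPM, and 5 of 6 tested fell in Cyp26-E1-KO and 0 passed in Cyp26-E2-KO. Neuroectoderm sums were 77.1 to 78.1, 82.5 to 87.0 and 66.0 to 73.8 CPM; of 6 tested, 2 rose and 1 fell in Cyp26-E1-KO and 1 fell in Cyp26-E2-KO. Fibroblast sums lay between 28.5 and 37.1 CPM, and 1 of 4 tested rose and 1 fell in each deletion. The part of these markers in the enhancer results was not tested.

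How far the 10 genes moved as a group was described by Pearson's r of log2 CPM, centred on the mean of each table, over the 23 libraries. Libraries of a group share its condition and the largest differences are those of Rxra-OE, so r is a description without a test. Over the 45 pairs of members the median r was 0.66, with 40 positive and 5 negative. The highest pair was Esrrb with Nr0b1 (0.94) and the lowest Klf4 with Klf5 (-0.37). All 5 negative pairs included Klf4. Within single tables the picture differed: the median was 0.89 over the 6 overexpression libraries, 0.28 over the 8 knockout libraries and -0.06 over the 9 enhancer libraries. Zfp42 and Esrrb stood at 0.94 over all libraries and at -0.53 within the enhancer table, where Zfp42 fell and Esrrb rose in Cyp26-E1-KO.

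**Figure D5:**
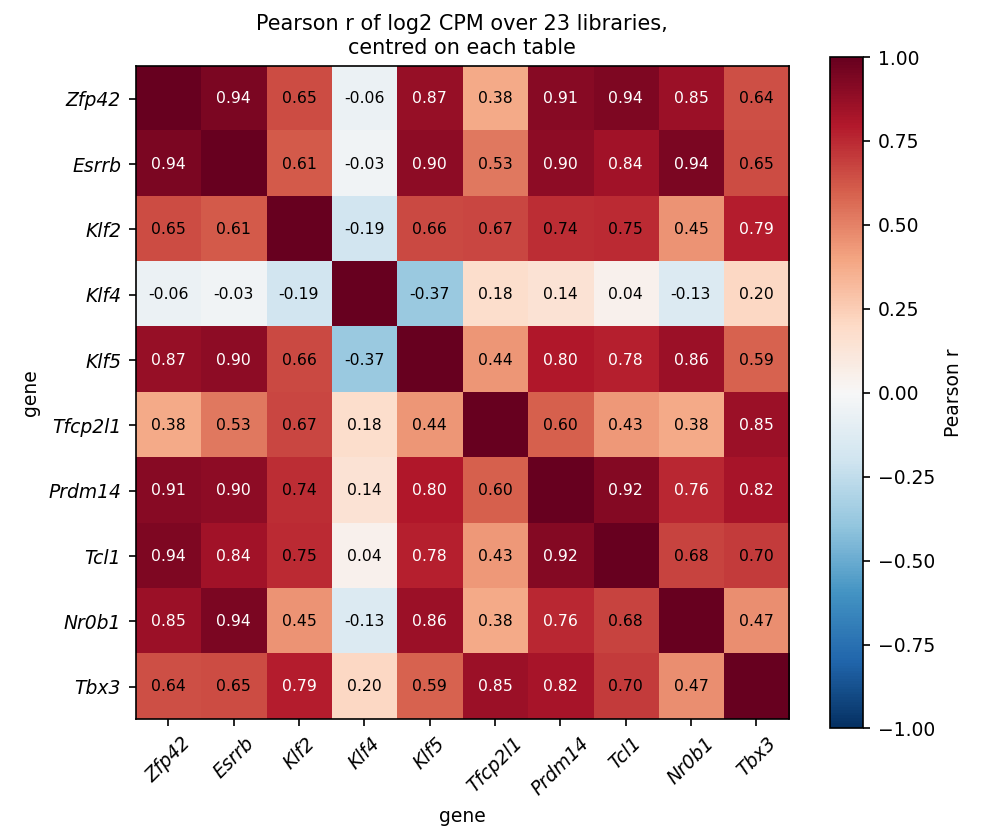
Pearson's r between each pair of the 10 regulators over 23 libraries, from log2 CPM centred on the mean of each table. Esrrb with Nr0b1 is the highest pair at 0.94, and the row of Klf4 holds the negative values, down to -0.37 with Klf5.

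The closest gene to each member was sought among the 9165 or 9166 other genes that were tested in every one of the 3 tables and whose average log2 CPM reached at least 3 there. The most similar to Zfp42 was Sox2 (r 0.98) and to Prdm14 it was Nanog (0.96). Esrrb was closest to Mkrn1 (0.98), Nr0b1 to Hbegf, an EGF-family growth factor (0.98), and Tcl1 to Myo1f (0.97). For Klf2 the closest was Smtnl2 (0.91), for Klf4 Cpt1a (0.91) and for Klf5 Ube2n (0.94). Tfcp2l1 was closest to another member, Tbx3 (0.85), and Tbx3 to the glucose transporter Slc2a3 (0.88).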

How the data were processed

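RNA-seq of 23 libraries was used from 3 deposited tables of raw counts per gene. The authors aligned to mm10; HISAT2 2.1.0, HTSeq 0.9.1 and DESeq2 1.18.1 are named, per the submitters' processing notes, without role or order, and strand is not stated, so reads of overlapping antisense genes cannot be told apart. Members were matched by symbol, and in the enhancer table by Ensembl identifier (52403 matched, 233 not). Members, lists and rules were chosen with earlier results of these data known. The rule for named genes was all 10 members, the targeted genes as checks, and up to 3 passing genes of each related list with the smallest adjusted p.

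One fit per table, over every group's deposited counts, was made in edgeR 4.0.16 (R 4.3.3): TMM, filterByExpr with a minimum count of 10, robust quasi-likelihood test, Benjamini-Hochberg over all genes tested, threshold 0.05. SE is the absolute log2FC over the square root of F. log2 CPM used a prior count of 2, and CPM per kb the exon length of GENCODE vM21. The script was tested on simulated data. Alternatives were DESeq2 1.42.0, other scalings, no filter, a replicate block, a chromosome offset, only the compared groups, and leaving out each library. H3K27Ac, input and 4C-seq samples were not used here. Same-number correlations of deviations ran from -0.32 to 0.15 in the knockout table, -0.02 to 0.06 in the overexpression table and -0.21 to 0.40 in the enhancer table. Within the enhancer table, a rule of more than 0.1 in every same-number pair was met only by Cyp26-E1-KO with Cyp26-E2-KO (0.20, 0.40 and 0.12). Some pairs of different number exceeded it as well: Cyp26-E1-KO replicate 3 with Cyp26-E2-KO replicate 1 was at 0.26. Cyp26-E1-KO replicate 1 with Cyp26-E2-KO replicate 3 was at 0.16, so the rule does not show that numbers mark pairs. With only 2 libraries a group, both same-number pairs share the same value and the other pairs hold its negative. In the knockout table, WT-RARX with Rxra-KO was at 0.15 and Rara-KO with Rxra-KO at 0.12. A single value of this kind cannot show pairing, and the labels name no shared batch.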

Additional observations from a re-analysis of the deposited data

How the results depend on the processing

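Of the calls of single members, 26 of 28 in the overexpression table, 13 of 14 in the enhancer table and 1 of 11 in the knockout table (Zfp42 in RARX-DKO) passed under every alternative run.

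Members called in Rara-KO against WT-RARX numbered 1 in the reported fit, 2 with DESeq2 size factors in edgeR, 2 with library totals, 6 with no filter, 0 with the replicate block (Prdm14 at an adjusted p of 0.0563), 0 with the chromosome offset, 2 in DESeq2 and 5 with only the groups compared. For Rxra-KO no filter gave 5 members in place of 3. For RARX-DKO no filter gave 5, DESeq2 4, only the groups compared 2 and a crossed replicate block, chosen after seeing the data, 3, in place of 1. For RARX-DKO against Rxra-KO they numbered 2, with no filter 5, with the replicate block 1, in DESeq2 4, with only the groups compared 0 and with the crossed block 3. For Cyp26-E2-KO against Cyp26-E1-KO library totals and DESeq2 gave 2 in place of 1. The replicate block otherwise left each count of members within 1.5 times, at 3 in Rxra-KO, 1 in RARX-DKO, 5 in Rxra-KO against Rara-KO, 9 in Rara-OE and Rxra-OE, 10 between these, 8 in Cyp26-E1-KO and 5 in Cyp26-E2-KO. Between the deletions, whose same-numbered libraries met the rule of 0.1, the block gave 1 member and 861 genes in place of 842. The member was Nr0b1 at -0.56 (adjusted p = 0.000693), as in the reported fit. Own-number correlation was the highest in 9 of 18 checks of the enhancer table.

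With 1 library left out, members called ranged from 0 to 2 in Rara-KO, 0 to 4 in Rxra-KO, 1 to 3 in RARX-DKO, 0 to 6 in Rxra-KO against Rara-KO, 0 to 1 in RARX-DKO against Rara-KO, 0 to 3 in RARX-DKO against Rxra-KO, 0 to 0 for the interaction term, 8 to 9 in Rara-OE, 9 to 9 in Rxra-OE, 10 to 10 between these, 7 to 9 in Cyp26-E1-KO, 5 to 6 in Cyp26-E2-KO and 1 to 4 between the deletions, the last without Cyp26-E1-KO replicate 2. A lone library of a group was then assumed to vary like the other groups, and calls over all genes also changed between these fits.

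Values that changed sign were 13, and none was called in the reported fit. Klf2 in Rara-KO (-0.015) was 0.022 with library totals, 0.012 with the chromosome offset and 0.0084 with only the groups compared. With 1 library left out it ran from -0.29 (without Rara-KO replicate 1) to 0.21 (without Rara-KO replicate 2), above 0 also without WT-RARX replicate 1 (0.025) or Rxra-KO replicate 1 (0.0031). In RARX-DKO, Tbx3 ran from -0.30 without RARX-DKO replicate 1 to 0.43 without replicate 2, and Tfcp2l1 from -0.67 to 0.034 without the same libraries. Klf5 in Rara-OE ran from -0.29 without Rara-OE replicate 2 to 0.059 without replicate 1, and in Cyp26-E2-KO from -0.046 without WT-Cyp26 replicate 1 to 0.032 without replicate 2, with 0.0087 without Cyp26-E2-KO replicate 1. Tfcp2l1 in Cyp26-E1-KO was -0.020 with library totals and ran from -0.13 without Cyp26-E1-KO replicate 2 to 0.099 without replicate 1. The cause was not tested.

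Over all genes, calls moved by more than 1.5 times as follows. Rara-KO had 106, with no filter 551, in DESeq2 269 and with only the groups compared 588. Rxra-KO had 407, with no filter 1084 and in DESeq2 654. RARX-DKO had 368, with no filter 981, in DESeq2 582 and with the crossed block 636. Rxra-KO against Rara-KO had 885 and with no filter 1840. RARX-DKO against Rara-KO had 2, with no filter 58 and in DESeq2 19. RARX-DKO against Rxra-KO had 575, with no filter 1366, with only the groups compared 30 and with the crossed block 948. The interaction term had 0, with no filter 115 and in DESeq2 45. Rara-OE had 4829 and in DESeq2 2766, and Cyp26-E2-KO had 3280 and with only the groups compared 5731. The deletions against each other had 842, with no filter 1384, in DESeq2 1357 and with only the groups compared 339. Library totals moved the split of higher to lower calls from 210 and 197 to 170 and 258 in Rxra-KO, from 360 and 525 to 254 and 731 in Rxra-KO against Rara-KO, from 331 and 244 to 414 and 173 in RARX-DKO against Rxra-KO, and from 380 and 462 to 505 and 334 between the deletions.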
